A study of Mus musculus with 6 samples.

Results

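The extracellular proteases and tissue inhibitors of metalloproteinases (TIMPs) described here are 10 genes: the matrix metalloproteinases Mmp7, Mmp14 and Mmp15, the inhibitors Timp1, Timp2 and Timp3, the plasminogen activators Plau and Plat, the receptor Plaur, and the aggrecanase-type protease Adamts1. They were chosen by symbol, and all 10 were found among the 24498 genes of the deposited count table. Matrix metalloproteinases (MMPs) are zinc-dependent enzymes that cut extracellular matrix and cell-surface proteins; they are made as inactive precursors and are held in check by TIMPs, which occupy the active site. Plasminogen activators form a parallel system in which urokinase, bound to its receptor, or tissue-type activator turns plasminogen into plasmin, a broad protease that can also activate MMP precursors. In the prostate these enzymes are known for their part in gland remodelling after androgen loss.

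Lineage-marked epithelial cells were sorted from the prostates of male mice and their RNA was sequenced in bulk. Cells of the Nkx groups carried Nkx3.1-CreER(T2) and the reporter allele Gt(ROSA)26Sortm1(EYFP)Cos (B6.129X1 strain), in which a recombinase active only after an inducing drug is driven from the luminal gene Nkx3.1 and switches on yellow fluorescent protein. Cells of the Clu group carried Clu-CreER(T2) and the reporter allele Gt(ROSA)26Sortm14(CAG-tdTomato)Hze (B6.Cg strain), in which the recombinase is driven from Clu, the gene of clusterin, and the reporter is red. At 8 weeks of age mice were left intact (Nkx intact, Clu intact) or castrated (Nkx castrate), and tissue was taken 4 weeks later. For every library the labels give a range of mouse ages, from 7 to 13 weeks. Each group had 2 libraries, named here by group and replicate number. The labels give neither the time nor the dose of induction, leave unsaid whether libraries of 1 group stem from different mice, and pair no castrated group with the Clu line, so p-values reflect library-to-library variation alone, which could be technical. Line, driver and reporter cannot be told apart in any comparison of Clu with Nkx cells.

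Counts per library lay between 10220118 and 17412874. Levels are CPM (counts scaled to a common library total) after TMM scaling, a correction for library composition. All 4 epithelial markers (Epcam, Cdh1, Krt8, Krt18) had counts in every library and summed to between 2790.1 and 7462 CPM, whereas 13 fibroblast and smooth muscle markers, which did not all move alike, summed to 566 to 769 CPM in 5 libraries and to 2327 CPM in Nkx castrate 1. Nkx castrate 1 also held the most leukocyte and macrophage marker RNA (12 markers, 444 CPM, against 42.6 to 189 CPM in the other 5 libraries). Endothelial RNA (9 markers) came to 1023 and 416 CPM in the Clu libraries, 466 and 65.7 CPM after castration and 83 and 52.6 CPM in intact Nkx mice. Nkx castrate 1 thus lay between the Clu libraries. All fibroblast, smooth muscle and endothelial markers had counts in every library, and among leukocyte markers up to 4 (Cd3e, Cd79a, Tyrobp, Fcer1g) were at 0 in a library. In bulk RNA, fewer cells of a type and less RNA per cell cannot be told apart.

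Mmp7, which encodes matrilysin, a small secreted metalloproteinase of glandular epithelia, differed in all 3 comparisons. Its level was 317 and 306 CPM in the Nkx intact libraries, 29.1 and 52 CPM in the Nkx castrate libraries, and 1139.6 and 1121 CPM in the Clu intact libraries. The groups did not overlap, and the order was Clu intact, then Nkx intact, then Nkx castrate. With castration Mmp7 fell by 2.94 on the log2 scale (SE 0.28, 7.7-fold), from 312 ± 8.18 to 40.5 ± 16.2 CPM (SD, n = 2), with an adjusted p of 0.00139 in edgeR's quasi-likelihood test after Benjamini-Hochberg adjustment over 13846 tested genes. In Clu intact it was 3.63-fold higher than in Nkx intact (log2 fold change 1.86, SE 0.27, adjusted p = 0.00495, edgeR) and 27.9-fold higher than in Nkx castrate (log2 fold change 4.80, SE 0.30, adjusted p = 0.000197, edgeR). The castration difference and the difference between Clu intact and Nkx castrate were called whichever library was left out; the call against Nkx intact was lost without Nkx intact 1 (adjusted p = 0.0674, edgeR) and without Nkx intact 2 (adjusted p = 0.0759, edgeR), with a log2 fold change of 1.90 and 1.84. Beside these differences, 5 luminal secretory markers, genes of secreted prostate proteins, summed to 14206 and 18486 CPM in intact Nkx mice, to 125 and 126 CPM after castration and to 7826 and 5608 CPM in Clu mice. Of the 5, edgeR called 4 lower with castration (Pbsn, Tgm4, Msmb, Azgp1) and 2 lower in Clu intact than in Nkx intact (Pbsn, Azgp1). In the latter comparison Tgm4 was lower (log2 fold change -1.21) and Spink1 (6.01) and Msmb (0.65) were higher, all without an edgeR call. DESeq2 called 3 of the 5 lower there and 1 higher. Basal RNA (8 markers) came to 4825 and 4894 CPM in intact Nkx mice, 4796 and 3118 CPM after castration and 3106 and 3184 CPM in Clu mice, and 3 of them (Krt5, Krt14, Trp63) were called lower in Clu intact than in Nkx intact. Krt5, a basal keratin gene, stood at 398 and 393 CPM in intact Nkx mice, against 61.8 and 99.1 CPM in Clu mice. Of 9 endothelial markers edgeR called 4 higher in Clu intact than in Nkx intact, beside 6.29% of all tested genes. DESeq2 called 6 higher and limma-voom 0. The part of these cells in the differences of Mmp7, and of Mmp15 and Timp2 below, was not tested. An antisense gene, AV064505, shares 123 bp of exon with Mmp7 and had at most 5 counts in any library.

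**Figure D1:**
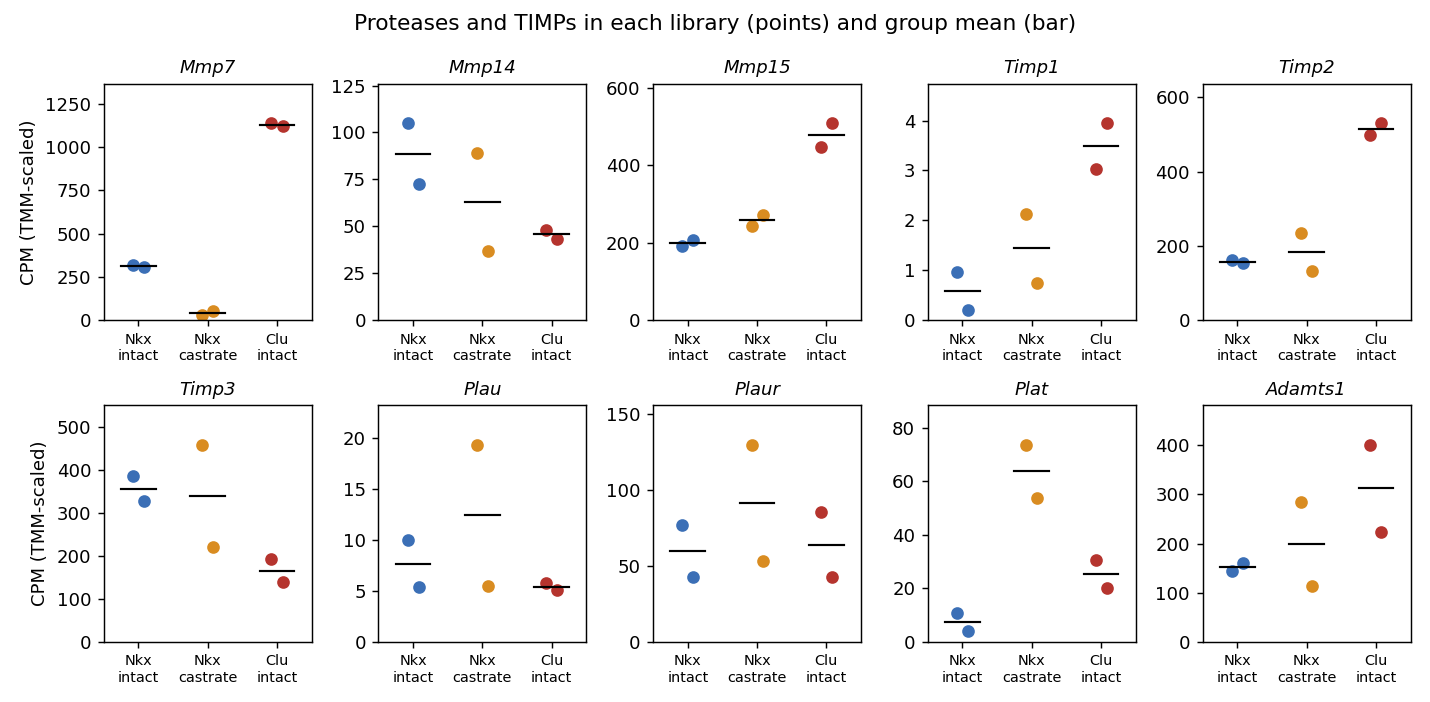
CPM after TMM scaling of each of the 10 genes (y axis, from 0, a scale of its own in each panel) in the 3 groups (x axis). Points are single libraries and bars are means of 2. The points of Mmp7 lie at 306 and 317 CPM in Nkx intact, at 29.1 and 52 CPM in Nkx castrate and at 1121 and 1139.6 CPM in Clu intact, while the 2 Nkx castrate points of Timp3, Plau, Plaur and Adamts1 lie far apart.

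The Mmp7 promoter is shown with those of Mmp15 and Timp2, which were also higher in Clu intact than in both Nkx groups, and of Plaur, the other member with the same motif. Each sequence is the 250 bases before the annotated start, 5′ to 3′ on the gene's strand, from RefSeq on build GRCm38.p6 (the counts were made on another build, GRCm39, so no other coordinates are given). Capitals mark matches, on either strand, to the AP-1 motif TGANTCA, the CRE motif TGACGTCA, the TATA box TATAAA and the GC box GGGCGG.

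Mmp7 (chr9:7691840-7692089, plus strand): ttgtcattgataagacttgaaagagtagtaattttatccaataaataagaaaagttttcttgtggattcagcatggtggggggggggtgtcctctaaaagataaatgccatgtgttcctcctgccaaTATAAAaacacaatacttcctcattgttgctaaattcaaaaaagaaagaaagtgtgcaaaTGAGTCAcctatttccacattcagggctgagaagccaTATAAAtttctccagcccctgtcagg
Plaur (chr7:24462233-24462482, plus strand): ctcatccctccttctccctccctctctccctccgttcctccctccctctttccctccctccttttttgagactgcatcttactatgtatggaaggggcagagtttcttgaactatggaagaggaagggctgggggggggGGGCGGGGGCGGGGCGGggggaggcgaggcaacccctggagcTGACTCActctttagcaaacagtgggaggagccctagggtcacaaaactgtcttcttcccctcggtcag
Mmp15 (chr8:95352046-95352295, plus strand): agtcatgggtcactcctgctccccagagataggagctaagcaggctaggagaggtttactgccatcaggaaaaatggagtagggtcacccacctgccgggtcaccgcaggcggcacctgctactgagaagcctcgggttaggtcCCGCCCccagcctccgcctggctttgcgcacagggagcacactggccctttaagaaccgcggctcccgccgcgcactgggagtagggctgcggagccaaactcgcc
Timp2 (chr11:118355412-118355661, minus strand): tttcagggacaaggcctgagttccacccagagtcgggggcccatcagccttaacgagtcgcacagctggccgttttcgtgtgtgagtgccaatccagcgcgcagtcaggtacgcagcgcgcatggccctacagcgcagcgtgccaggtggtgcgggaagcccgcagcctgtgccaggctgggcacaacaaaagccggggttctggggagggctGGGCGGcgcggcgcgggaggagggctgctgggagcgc

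The Mmp7 window held TGANTCA from 63 to 57 bases before the start and TATAAA from 26 to 21 bases before it and from 123 to 118 bases before it, and no GC box. The Plaur window held TGANTCA from 69 to 63 bases before the start beside 3 GC boxes, 2 of which share a base. Mmp15 and Timp2 each held 1 GC box and none of the other motifs. Promoter entries were at hand for 8 members, not for Plau and Plat. TGANTCA was in 2 of these 8 (Mmp7, Plaur), TATAAA in 2 (Mmp7, Adamts1) and GGGCGG in 7 (all but Mmp7), against 6.75%, 12.4% and 32.7% of 32851 mouse promoter windows of the same length. TGACGTCA was in none of the 8 and in 1.55% of all windows. A second Mmp7 start listed by RefSeq had none of the motifs in its window. These matches describe the letters in the windows and are not evidence of binding.

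Of the 2 membrane-anchored MMPs, Mmp15 was called higher in Clu intact and Mmp14 was called in no comparison. Mmp15, whose protein is tethered to the plasma membrane, measured 192 and 207 CPM in the Nkx intact libraries, 243 and 273 CPM after castration, and 448 and 509.8 CPM in the Clu libraries. No groups overlapped. In Clu intact Mmp15 was 2.4-fold higher than in Nkx intact (log2 fold change 1.26, SE 0.17, edgeR adjusted p = 0.00407) and 1.85-fold higher than in Nkx castrate (log2 fold change 0.89, SE 0.17, edgeR adjusted p = 0.0108). The castration difference of 0.37 (log2, SE 0.17) was not called (edgeR adjusted p = 0.235). The call against Nkx intact was lost without either Nkx intact library (adjusted p of up to 0.0654, edgeR), and that against Nkx castrate without Clu intact 2 (log2 fold change 0.82, adjusted p = 0.114, edgeR).

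Mmp14 encodes the collagenase that also activates the MMP2 precursor, and is known as a gene of stroma as well as of epithelium. It measured 105 and 72.4 CPM in the Nkx intact libraries, 89.1 and 36.6 CPM after castration, and 48.1 and 43.3 CPM in the Clu libraries. The Nkx castrate libraries lay on both sides of the Clu libraries, and no comparison was called. The largest difference was -0.96 (log2, SE 0.39) for Clu intact against Nkx intact (edgeR adjusted p = 0.171). That difference passed the threshold when only the groups compared were fitted. It also passed, at a log2 fold change of -0.95, when either Nkx castrate library was left out. Without Nkx castrate 1, the library with the largest stromal marker sum, Mmp14 was 1.28 lower in Nkx castrate than in Nkx intact (log2 fold change -1.28, adjusted p = 0.00499, edgeR), and without Nkx castrate 2 the difference was 0. Per library, Mmp15 counts exceeded Mmp14 counts by 0.87 and 1.52 on the log2 scale in the Nkx intact libraries, 1.45 and 2.90 after castration, and 3.22 and 3.56 in the Clu libraries.

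Adamts1, a secreted protease that cuts proteoglycans such as versican, measured 145 and 160.1 CPM in the Nkx intact libraries, 284 and 114 CPM after castration, and 401 and 224 CPM in the Clu libraries. Both Clu libraries were above both Nkx intact libraries, whereas Clu intact 1 was above Nkx castrate 1 and Clu intact 2 was below it. No comparison was called (log2 fold change 1.03, SE 0.42, edgeR adjusted p = 0.17 for Clu intact against Nkx intact). Leaving out either Nkx castrate library, which are no part of that comparison but share its spread, brought the difference past the threshold at a log2 fold change of 1.04 (adjusted p = 0.00429 and 0.00583, edgeR). The castration difference was 0.38 (SE 0.42) with all libraries, -0.43 without Nkx castrate 1 and 0.89 without Nkx castrate 2. Against Nkx castrate, Clu intact was 1.46 higher (log2, adjusted p = 0.00259, edgeR) once Nkx castrate 1 was left out.

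Among the inhibitors, Timp2 was called higher in Clu intact than in both Nkx groups, and Timp1 and Timp3 were called in no comparison. Timp2, which inhibits most MMPs and is also needed for MMP2 activation at the cell surface, measured 162 and 153 CPM in the Nkx intact libraries, 235 and 132 CPM after castration, and 498 and 531 CPM in the Clu libraries. Both Clu libraries were more than 2-fold above every Nkx library. Timp2 was 3.27-fold higher in Clu intact than in Nkx intact (log2 fold change 1.71, SE 0.27, edgeR adjusted p = 0.0072) and 2.8-fold higher than in Nkx castrate (log2 fold change 1.49, SE 0.27, edgeR adjusted p = 0.0088), and did not pass for castration (log2 fold change 0.22, SE 0.26, edgeR adjusted p = 0.675; -0.26 without Nkx castrate 1). The call against Nkx intact was lost without either Nkx intact library (adjusted p of up to 0.0904, edgeR), and that against Nkx castrate without Clu intact 2 (adjusted p = 0.0529, edgeR).

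Timp3, whose product binds the extracellular matrix and also inhibits ADAM proteases, measured 386 and 328 CPM in the Nkx intact libraries, 459.5 and 221 CPM after castration, and 192 and 139 CPM in the Clu libraries. Every Nkx library was above both Clu libraries. The log2 fold changes of Clu intact were -1.11 (SE 0.34) against Nkx intact and -1.04 (SE 0.33) against Nkx castrate, and neither was called (adjusted p = 0.0766 and 0.0705, edgeR). DESeq2 called both (adjusted p = 0.00934 and 0.0112) and limma-voom neither (adjusted p = 0.079 and 0.0822). Leaving out either Nkx castrate library brought the difference against Nkx intact past the threshold, at a log2 fold change of -1.11. Dcn, the fibroblast gene of decorin, stood at 360.1 and 335 CPM in intact Nkx mice, 426 and 110.3 CPM after castration and 88.7 and 107 CPM in Clu mice, so that Dcn and Timp3 were both highest in Nkx castrate 1 and lower in the Clu libraries than in the Nkx intact ones (log2 fold change of Dcn -1.83, adjusted p = 0.0637, edgeR). Other stromal markers went the opposite way, such as Col3a1, a collagen gene, at 87.1 and 66.2 CPM in intact Nkx mice and 129 and 139 CPM in Clu mice. The part of stromal RNA in the Timp3 values was not tested. Timp3 shares 1733 bp of exon with Syn3 on the opposite strand; Syn3 had 72 to 261 counts per library, against 1484 to 8196 for Timp3. The strand setting of the counting is not given in the sources used here.

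The ratio of Timp2 to Timp3 within a library does not depend on scaling. The log2 ratio of counts was -1.26 and -1.10 in the Nkx intact libraries, -0.97 and -0.75 after castration, and 1.38 and 1.93 in the Clu libraries. Timp3 thus had more counts in all 4 Nkx libraries and Timp2 in both Clu libraries. These counts are not corrected for exon length, which was 8.14 kb for Timp3 and 3.9 kb for Timp2. Per kilobase of these lengths, Timp2 was above Timp3 in both Nkx castrate libraries (60.3 and 33.9 against 56.4 and 27.1 CPM per kb) and below it in both Nkx intact libraries. The Timp3 length includes the 1733 bp shared with Syn3. If reads there were not counted for Timp3, its values per kilobase are too low, so the order after castration is uncertain. The mean log2 ratio differed by 2.84 between Clu intact and Nkx intact and by 2.51 between Clu intact and Nkx castrate; a two-sided exact permutation test of 2 libraries against 2 gave p = 0.333 for each, the smallest it allows. The same ratio of Mmp7 to Mmp15 was 0.72 and 0.56 in the Nkx intact libraries, -3.06 and -2.39 after castration, and 1.35 and 1.14 in the Clu libraries.

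**Figure D2:**
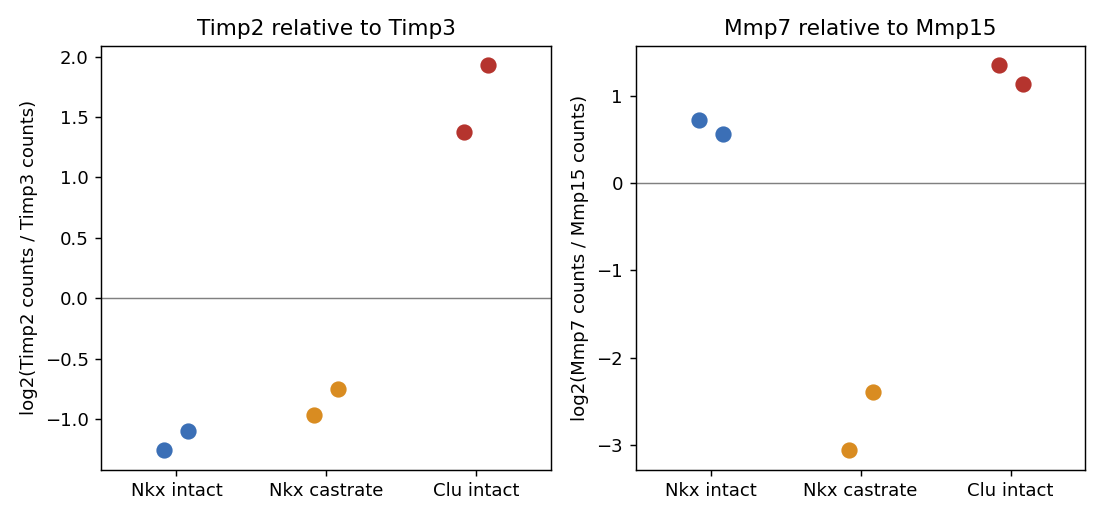
Log2 ratio of counts within each library (y axis) for Timp2 over Timp3 (left) and Mmp7 over Mmp15 (right) in the 3 groups (x axis), with 1 point per library and a line at a ratio of 1. The counts are not corrected for exon length. Timp2 over Timp3 lies below the line in all 4 Nkx libraries and above it in both Clu libraries, and Mmp7 over Mmp15 lies below the line in both Nkx castrate libraries.

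Timp1, an inhibitor of MMPs that inflammatory signals induce, was near the limit of detection. It had 10 and 2 counts in the Nkx intact libraries, 38 and 10 after castration, and 36 and 42 in the Clu libraries, or 0.956 and 0.197, 2.13 and 0.739, and 3.03 and 3.95 CPM. The exact 95% counting interval was 0.242 to 7.22 counts for the lowest library and 30.3 to 56.8 counts for the highest. Both Clu libraries were above every Nkx library, and the log2 fold change of 2.57 against Nkx intact had an SE of 1.08 and was not called (edgeR adjusted p = 0.178). All 10 genes passed the filter on low counts.

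Of the plasminogen activators, Plat rose with castration and Plau did not pass. Plat, the gene of tissue-type plasminogen activator, which endothelial cells also make, measured 10.6 and 3.95 CPM in the Nkx intact libraries, 73.6 and 53.7 CPM after castration, and 30.5 and 20.2 CPM in the Clu libraries. The 3 groups did not overlap. With castration Plat rose 8.72-fold (log2 fold change 3.12, SE 0.47, edgeR adjusted p = 0.00729). Its mean went from 7.28 ± 4.71 to 63.6 ± 14 CPM (SD, n = 2). The call was kept whichever library was left out, but lay only just inside the threshold once Nkx intact 2 was dropped. Over these fits the castration difference of Plat ranged from 2.58 (Nkx intact 2 dropped) to 4.00 (Nkx intact 1 dropped) on the log2 scale. Clu intact was 3.48-fold higher than Nkx intact (log2 fold change 1.80, SE 0.45, edgeR adjusted p = 0.0417), a call that was lost without Nkx intact 2 (log2 fold change 1.26, adjusted p = 0.17, edgeR), without Clu intact 1 (1.48, adjusted p = 0.196, edgeR) and without Clu intact 2 (2.08, adjusted p = 0.0784, edgeR), and whose log2 fold change was 2.69 without Nkx intact 1. Limma-voom did not call it either (adjusted p = 0.0687). Clu intact was 1.33 below Nkx castrate on the log2 scale (SE 0.43), which edgeR did not call (adjusted p = 0.0717) and DESeq2 and limma-voom did (adjusted p = 0.02 and 0.0238).

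The smooth muscle genes Acta2, Myh11, Cnn1 and Des were higher in both castrate libraries than in both Nkx intact libraries, as Plat was, and so were Lum and Fbln1. Tagln, another smooth muscle gene, was not, nor were Dcn, Pdgfra and Pdgfrb. The collagen genes Col1a1, Col1a2 and Col3a1 went the opposite way, lower in both castrate libraries. Col3a1 stood at 87.1 and 66.2 CPM in intact Nkx mice and at 45.2 and 4.95 CPM after castration. With castration 5 of the 13 stromal markers rose (Lum, Acta2, Myh11, Cnn1, Des) and none was called lower by edgeR, DESeq2 or limma-voom; at an unadjusted p under 0.05, 0 were lower in edgeR and 3 in limma-voom, which called 2 higher. Myh11, the gene of smooth muscle myosin, stood at 64.6 and 44.8 CPM in intact Nkx mice and at 922 and 249.7 CPM after castration (log2 fold change 3.42, adjusted p = 0.0191, edgeR), and Acta2, the gene of smooth muscle actin, at 28.4 and 13.2 against 333 and 98.4 CPM (log2 fold change 3.37, adjusted p = 0.0233, edgeR). The 9 endothelial markers summed to 466 and 65.7 CPM after castration, against 83 and 52.6 CPM in intact Nkx mice, and none of the 9 was called by edgeR or limma-voom; 6 were higher at an unadjusted p under 0.05 in edgeR, and DESeq2 called 1 higher. Without Nkx castrate 1 the castration difference of Plat was 2.88 (log2, adjusted p = 0.000574, edgeR). The part of smooth muscle and endothelial RNA in the castration difference was not tested. In Clu intact the endothelial sum was 1023 and 416 CPM, against at most 83 CPM in Nkx intact, and Plat was also higher in the library with the larger sum; the part of endothelial RNA in that difference was not tested.

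Plau, the gene of urokinase, was low, at 9.94 and 5.33 CPM in the Nkx intact libraries, 19.3 and 5.47 CPM after castration, and 5.73 and 5.07 CPM in the Clu libraries. All groups overlapped with Nkx intact, and no comparison was called (edgeR adjusted p from 0.232 to 0.674). Plaur, the gene of the urokinase receptor, measured 77 and 42.4 CPM in the Nkx intact libraries, 129.6 and 53.3 CPM after castration, and 85.5 and 42.4 CPM in the Clu libraries, with overlap in all comparisons and no call (edgeR adjusted p from 0.507 to 0.928). In each group Plaur was higher in replicate 1, by 1.82-fold in Nkx intact, 2.43-fold in Nkx castrate and 2.02-fold in Clu intact. Without Nkx castrate 1 the castration differences turned from 0.70 to -0.48 for Plau and from 0.62 to -0.16 for Plaur (log2).

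**Figure D3:**
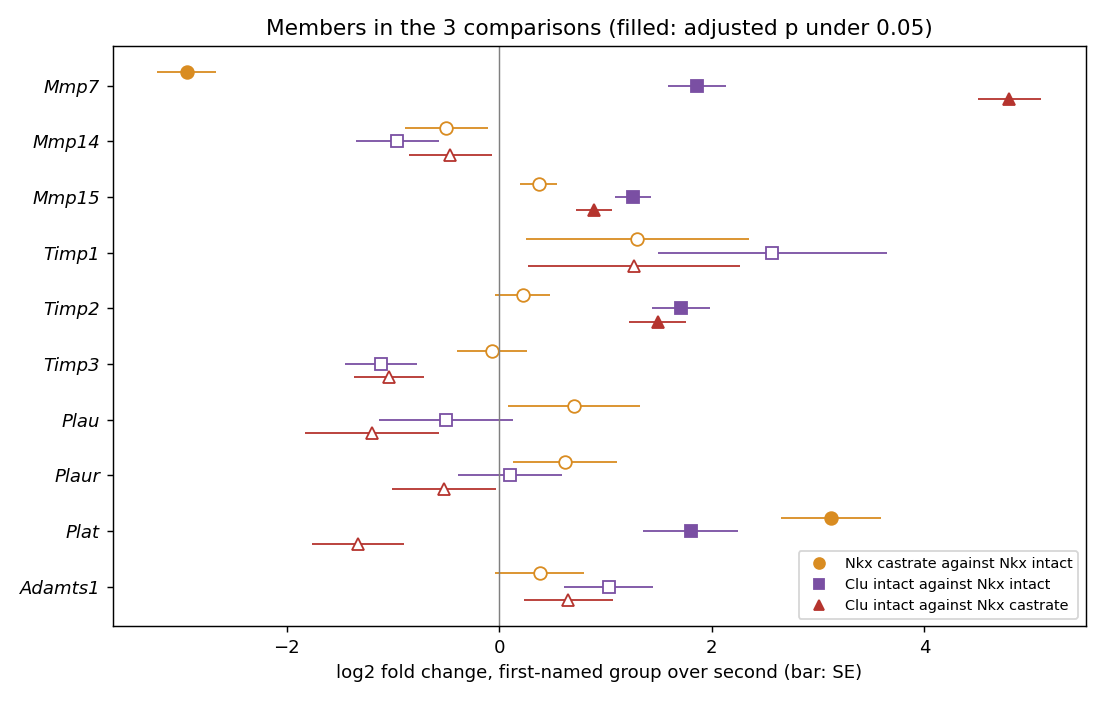
Log2 fold change of each of the 10 genes (x axis; above 0 where the group named first was higher) in the 3 comparisons, with bars for the SE of the edgeR model and filled symbols for an adjusted p under 0.05. Mmp7 is called in all 3 comparisons, on the negative side for castration (-2.94) and on the positive side for Clu intact (1.86 and 4.80).

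For castration, 1 of the 10 genes was called higher (Plat) and 1 lower (Mmp7), against 8.63% of all tested genes in either direction (4.04% higher, 4.59% lower). The groups' libraries did not overlap for 3 of the 10 (Mmp7, Mmp15, Plat), where 49.9% of all genes did not. Between Clu intact and Nkx intact, 4 were called higher (Mmp7, Mmp15, Timp2, Plat) and none lower, against 11.3% of all genes in either direction and 6.29% higher; 8 of 10 did not overlap, against 63.3% of all genes. At an unadjusted p under 0.05, 2 of the 10 were lower (Mmp14, Timp3), and DESeq2 called 1 lower and limma-voom 0. Between Clu intact and Nkx castrate, 3 were called higher (Mmp7, Mmp15, Timp2) and none lower, against 16.9% in either direction and 8.82% higher, and 6 of 10 did not overlap, against 61.4% of all genes; at an unadjusted p under 0.05 2 were lower (Timp3, Plat), and DESeq2 called 2 lower and limma-voom 1. The median log2 fold change of the 10 was 0.38, 1.15 and 0.10 in the order of these comparisons, beside 0.05, -0.01 and 0 over all tested genes. The comparisons share groups, so that their counts are not independent.

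Apart from the ratios of counts within a library above, levels of different genes were compared per kilobase of exon. The length was the union of exons in GENCODE M21 (from 0.888 kb for Timp1 to 8.14 kb for Timp3). For Timp3 it includes the 1733 bp shared with Syn3, so the place of Timp3 among genes of similar level is uncertain. On that scale Mmp7 led in Nkx intact at 292 ± 7.28 CPM per kb (SD, n = 2), followed by Timp3 (43.8 ± 5.04), Timp2 (40.4 ± 1.63) and Mmp15 (37 ± 1.97). The libraries of Timp3 and Timp2 overlapped there, while those of Mmp7 and Timp3, and of Timp2 and Mmp15, did not. In Nkx castrate, Mmp15 (47.8 ± 3.93 CPM per kb), Timp2 (47.1 ± 18.7), Timp3 (41.8 ± 20.7), Mmp7 (38 ± 15.2), Adamts1 (37.5 ± 22.7) and Plaur (34.9 ± 20.6) lay within each other's spread. In Clu intact Mmp7 was at 1058 ± 12.3 CPM per kb, followed by Timp2 at 132 ± 5.99 and Mmp15 at 88.7 ± 8.1, which did not overlap. Plau, Plat and Timp1 had means below 6 CPM per kb in all groups, except Plat at 10.2 ± 2.25 in Nkx castrate.

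The median ratio of replicate 1 to replicate 2 over the 10 genes was 2.26 in Nkx castrate, 1.32 in Nkx intact and 1.12 in Clu intact. Of the 10 genes, 7 (Mmp14, Timp1, Timp2, Timp3, Plau, Plaur, Adamts1) were 1.78- to 3.53-fold higher in Nkx castrate 1 than in Nkx castrate 2. Mmp7 ran the other way, at a ratio of 0.56, and Mmp15 and Plat were at 0.89 and 1.37. Between the same libraries the fibroblast and smooth muscle markers differed 4.11-fold, the endothelial markers 7.09-fold, the leukocyte markers 4.66-fold and the basal markers 1.54-fold, while the epithelial markers were at 0.82. The part of these cells in the spread of the 7 genes was not tested. In Clu intact Plaur (2.02), Adamts1 (1.79) and Plat (1.51) were the members over 1.5-fold higher in replicate 1, where endothelial markers were 2.46-fold higher.

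**Figure D4:**
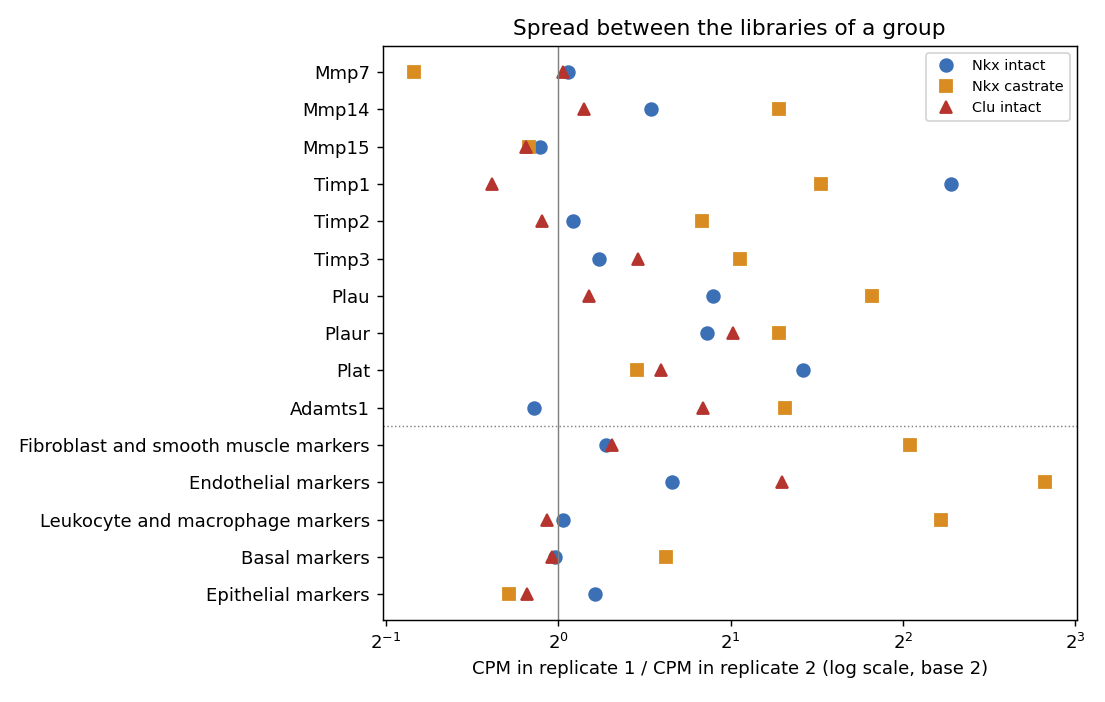
Ratio of CPM in replicate 1 to CPM in replicate 2 (x axis, log scale) within each group for the 10 genes (above the dotted line) and the summed markers of 5 cell types (below it), with 1 symbol per group and a line at a ratio of 1. Nkx castrate symbols of 7 genes lie between 1.78 and 3.53, as those of stromal, endothelial and leukocyte markers lie between 4.11 and 7.09, while Mmp7 lies at 0.56.

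Related genes of the same systems were read from 6 lists with 75 genes, of which 54 passed the filter on low counts. With castration 2 of the 54 were called higher and 3 lower, or 9.26% in all, beside the 8.63% of all genes. In Clu intact 11 were higher and 2 lower than in Nkx intact (24.1%, beside 11.3%), and 18 were higher and 3 lower than in Nkx castrate (38.9%, beside 16.9%). Calls kept whichever single library was left out were 1 of 5 for castration (Serpine2), 2 of 13 against Nkx intact (Furin, Anxa2) and 5 of 21 against Nkx castrate (Timp4, Bsg, Furin, Serpine2, S100a10). The median log2 fold change of the 54 was 0.05, 0.28 and 0.21.

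Of 11 other MMPs tested, none was called for castration by edgeR (3 at an unadjusted p under 0.05, 1 called by DESeq2 and 0 by limma-voom), and 1, Mmp16, a membrane-anchored enzyme, was higher in Clu intact. Mmp16 had 1.34 and 0 CPM in the Nkx intact libraries, 2.97 and 0.886 CPM after castration, and 39.2 and 29.7 CPM in the Clu libraries (log2 fold change 5.65, SE 1.04, edgeR adjusted p = 0.0134 against Nkx intact, and 4.13, SE 0.92, adjusted p = 0.0199 against Nkx castrate). The value against Nkx intact moved to 4.68 when Nkx intact 2 was left out, and to 11.8 when Nkx intact 1 was left out and no count remained in that group; that against Nkx castrate moved to 5.26 when Nkx castrate 1 was left out and to 3.54 when Nkx castrate 2 was. The call was lost without Clu intact 1 against Nkx intact and without either Clu library against Nkx castrate (adjusted p of up to 0.0992, edgeR). DESeq2 did not call it against Nkx castrate (adjusted p = 0.0558). Of 11 other ADAMTS genes tested, Adamts15, a proteoglycan-cutting enzyme, was higher in Clu intact (16.2 ± 1.5 CPM against 3.5 ± 0.0793 in Nkx intact and 2.08 ± 0.228 in Nkx castrate; SD, n = 2), and Adamts17 lower (2.98 ± 1.03 CPM against 18.4 ± 3.51 and 9.42 ± 0.475). Adamts6 was called lower against Nkx castrate alone, at 1.9 against 9.3 CPM.

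The ADAM sheddases, membrane proteases that release ligands and receptors from the cell surface, were called higher in Clu intact or not called. Against Nkx intact 3 of 9 were called higher, and against Nkx castrate 5 of 9, beside 6.29% and 8.82% of all tested genes. None was called lower in either. At an unadjusted p under 0.05 in edgeR, 1 was lower against Nkx intact (Adam8) and 2 against Nkx castrate (Adam8, Adam19). For castration none was called by edgeR (1 at an unadjusted p under 0.05, 1 called by DESeq2 and 0 by limma-voom). Adam17, which releases tumour necrosis factor and EGF receptor ligands, measured 64.7 ± 3.09 CPM in Clu intact, 29.4 ± 3.48 in Nkx intact and 24.2 ± 3.87 in Nkx castrate (SD, n = 2; log2 fold change 1.14, SE 0.22, and 1.42, SE 0.22; edgeR adjusted p = 0.0164 and 0.00533). Adam15 was 2.11-fold and 2-fold higher, Adam10, the other principal sheddase, 1.93-fold higher than in Nkx intact, and Adam9 and Adam28 1.92-fold and 3.2-fold higher than in Nkx castrate. Leaving out a single library ended each of these calls in at least 1 fit (adjusted p of up to 0.266, edgeR).

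Timp4, the remaining TIMP, had the largest difference among the inhibitors and activators of MMPs. It measured 4.59 and 5.92 CPM in the Nkx intact libraries, 2.58 and 0.222 CPM after castration, and 88.2 and 95.7 CPM in the Clu libraries. Its log2 fold change in Clu intact was 4.13 (SE 0.66, edgeR adjusted p = 0.00748) against Nkx intact and 5.96 (SE 0.73, edgeR adjusted p = 0.00197) against Nkx castrate, the latter 8.63 without Nkx castrate 1, which leaves 3 counts, and 5.16 without Nkx castrate 2; the call against Nkx intact was lost without either Nkx intact library (adjusted p of up to 0.1, edgeR). Furin, a convertase that cuts the precursors of membrane MMPs, was 2.68-fold and 3.15-fold lower in Clu intact (119 ± 12.7 CPM, against 318 ± 48.7 in Nkx intact and 374 ± 11.7 in Nkx castrate; SD, n = 2), calls kept in all 6 leave-one-out fits. Bsg, an inducer of MMPs known as basigin, was 1.89-fold and 3.19-fold higher there. Pcsk5, another convertase, fell 6.25-fold with castration (42.2 ± 3.5 to 6.7 ± 4.25 CPM; SD, n = 2; log2 fold change -2.64, and -3.51 without Nkx castrate 1), a call lost without either Nkx intact library (adjusted p of up to 0.1, edgeR), and was 4.33-fold higher in Clu intact than in Nkx castrate (log2 fold change 2.11, and 2.98 without Nkx castrate 1).

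Serpine2, the gene of protease nexin, an inhibitor of urokinase, plasmin and thrombin, fell with castration. It measured 199 and 179 CPM in the Nkx intact libraries, 16.3 and 10.2 CPM after castration, and 93.7 and 204 CPM in the Clu libraries. The castration difference was 14.2-fold (log2 fold change -3.83, SE 0.41, edgeR adjusted p = 0.00221), and Clu intact was 11.2-fold above Nkx castrate (log2 fold change 3.49, SE 0.40, edgeR adjusted p = 0.00155; 2.85 without Clu intact 2), calls kept in all 6 leave-one-out fits. Anxa2, which with S100a10 forms a cell-surface docking site for plasminogen and tissue-type activator, measured 173 ± 26.7 CPM in Nkx intact, 303 ± 28.8 in Nkx castrate and 674 ± 112 in Clu intact (SD, n = 2) and was called in all 3 comparisons, for castration (1.75-fold higher) at an adjusted p of 0.049 in edgeR. S100a10 was 3.31-fold higher in Clu intact than in Nkx castrate (log2 fold change 1.73, and 2.35 without Nkx castrate 1). In total 8 of 11 listed genes of the plasminogen system were tested, of which 1 was called higher and 1 lower for castration, 1 higher against Nkx intact and 3 higher against Nkx castrate.

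Membrane serine proteases and their Kunitz inhibitors were the last list, with 8 of 10 genes tested. Tmprss4, a membrane serine protease, had no count in any of the 4 Nkx libraries and 9.02 and 12.7 CPM in Clu intact, at least 74.8-fold higher than in Nkx intact and at least 114-fold higher than in Nkx castrate against a floor of 3 counts over a group's 2 libraries. Hpn, the gene of hepsin, was 6.51-fold and 4.73-fold higher in Clu intact (28.4 ± 2.56 CPM, against 4.36 ± 0.862 and 6.04 ± 3.78; SD, n = 2; log2 fold change against Nkx castrate 2.24, and 3.09 without Nkx castrate 2). Tmprss2, whose human counterpart responds to androgen, fell 1.64-fold with castration, from 287 ± 5.82 to 175 ± 16.3 CPM (SD over 2 libraries; log2 fold change -0.71, SE 0.16, edgeR adjusted p = 0.0353) and was 1.61-fold higher in Clu intact than in Nkx castrate. Spint1, a Kunitz inhibitor of matriptase and hepsin, rose 1.89-fold with castration (edgeR adjusted p = 0.0364) and was 2.32-fold higher in Clu intact than in Nkx intact. Spint2, another such inhibitor, was 1.81-fold higher in Clu intact than in Nkx castrate. Each call of Tmprss4, Hpn, Tmprss2, Spint1 and Spint2 in Clu intact was lost in at least 1 leave-one-out fit. Leaving out either Nkx intact or either Clu library ended the castration calls of Tmprss2, Spint1 and Anxa2 (adjusted p of up to 0.351, edgeR).

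**Figure D5:**
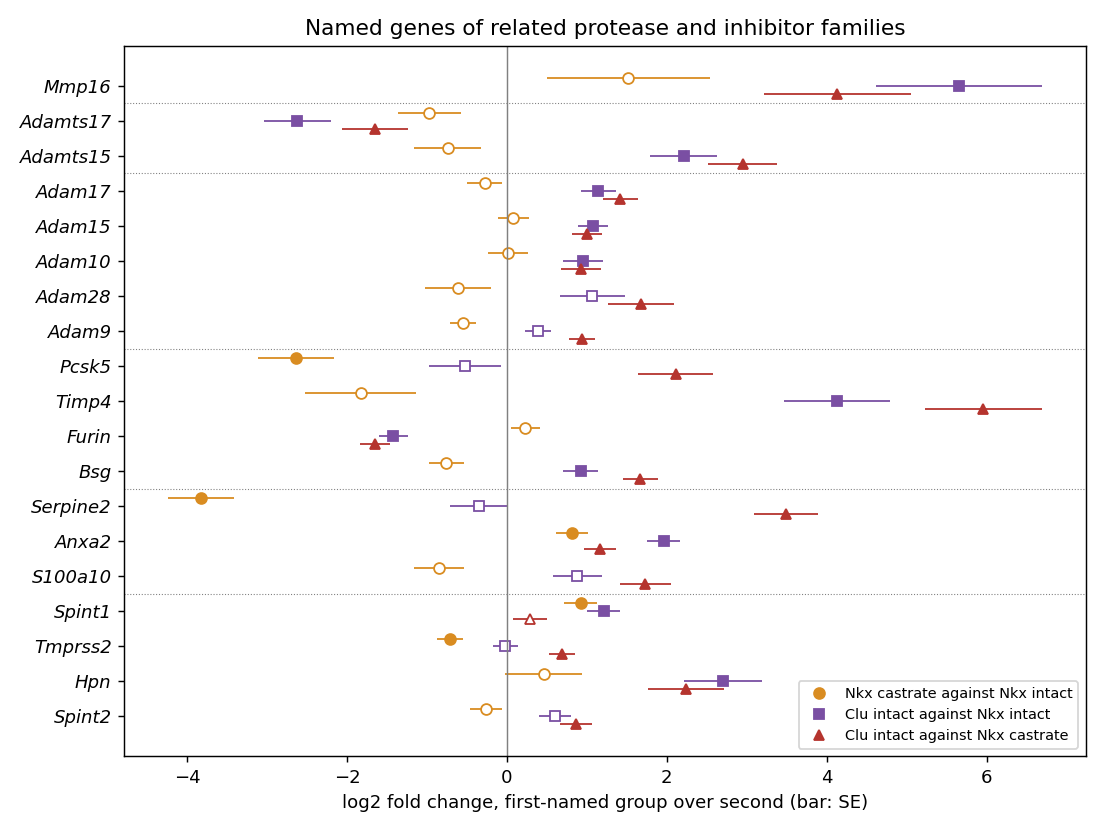
Log2 fold change (x axis; above 0 where the group named first was higher) of the named genes of 6 related lists (parted by dotted lines) in the 3 comparisons, with bars for the SE and filled symbols for an adjusted p under 0.05. Tmprss4, without a count in the Nkx libraries, is left out. Furin and Adamts17 lie on the negative side for Clu intact, and Serpine2 and Pcsk5 on the negative side for castration.

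The genes whose levels over the 6 libraries were most like those of the called members were found by the root mean square difference of log2(CPM + 0.5), each centred on its own mean, among 9028 genes with a mean of at least 10 CPM. Nearest to Mmp7 were Mme (0.45), the membrane metallopeptidase neprilysin, Sbspon (0.45) and Ptprz1 (0.46). Mme measured 301 and 307 CPM in the Nkx intact libraries, 42.7 and 81 CPM after castration, and 770 and 836 CPM in the Clu libraries, in the same order of groups as Mmp7. Nearest to Mmp15 were Rab3ip (0.07), Atp8b1 (0.08) and Ppip5k1 (0.09), and nearest to Timp2 were Tnfaip8 (0.12), Bcl2 (0.14) and Ntn4 (0.15). Nearest to Plat were Ngef (0.31), Edn1 (0.39), the gene of endothelin-1, and Zscan2 (0.40). Edn1 measured 13.8 and 7.7 CPM in the Nkx intact libraries, 56 and 77.7 CPM after castration, and 45.5 and 27.2 CPM in the Clu libraries. This likeness is a description over 6 libraries of 3 groups.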

How the data were processed

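RNA from sorted, lineage-marked mouse prostate cells (2 ng total RNA per library, the Pico Input v3 version of the SMARTer Stranded Total RNA-Seq Kit, per the labels' protocols) was sequenced. The deposited values are raw read counts per gene; FastQC 0.11.9, STAR 2.7.9a and Subread 2.0.1 (featureCounts) and build GRCm39 are named in the submitters' processing notes, and the sources used here do not give the strand setting. A model was fitted to the counts in edgeR 4.0.16 (R 4.3.3) with 3 group means over all 6 libraries, TMM scaling, edgeR's default filter on low counts and the quasi-likelihood test. P-values were adjusted by Benjamini-Hochberg over 13846 genes, with a threshold of 0.05. The fit had 3 residual degrees of freedom and a common biological coefficient of variation of 33.7%. DESeq2 1.42.0, limma 3.58.1 (voom), other scalings and filters, a replicate block and leaving out each library were alternatives. A group left with 1 library was assumed to vary like the others. Counting intervals are exact Poisson intervals at 95% and cover counting error only. The members and lists were chosen with earlier results of these data known. Related genes were named per list and comparison: up to 4 called genes with a mean of at least 10 CPM in a group, by size of change; Adamts6 was named after its values were seen.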

Additional observations from a re-analysis of the deposited data

How the results depend on the processing

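The 12 changes of sign among the 10 genes all came from leaving out a library and all concern differences that were not called. For castration (log2), without Nkx castrate replicate 1 they were -0.26 for Timp2, -0.48 for Plau, -0.16 for Plaur and -0.43 for Adamts1, without Nkx castrate replicate 2 they were 0 for Mmp14 and 0.36 for Timp3, and without Nkx intact replicate 1 the value was 0.04 for Timp3. For Clu intact against Nkx intact they were 0.03 for Plau without Nkx intact replicate 1, and for Plaur -0.26 without Nkx intact replicate 2 and -0.48 without Clu intact replicate 1. For Clu intact against Nkx castrate they were 0.32 for Mmp14 and 0.26 for Plaur without Nkx castrate replicate 1. The lowest and highest values of these comparisons with a library left out were, for castration, -1.28 and 0 for Mmp14, -0.26 and 0.57 for Timp2, -0.69 and 0.36 for Timp3, -0.48 and 1.33 for Plau, -0.16 and 1.11 for Plaur and -0.43 and 0.89 for Adamts1. Against Nkx intact they were -0.87 and 0.03 for Plau and -0.48 and 0.61 for Plaur, and against Nkx castrate -0.95 and 0.32 for Mmp14 and -1.09 and 0.26 for Plaur. The cause was not tested.

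Counts of calls with a single library left out ran, for castration, from 1 to 3 genes higher and 1 to 3 lower of the 10, 0 to 9 higher and 1 to 11 lower of the related genes, and 209 to 2412 of all genes. For Clu intact against Nkx intact they ran from 0 to 5 and 0 to 2 of the 10, 3 to 19 and 1 to 8 of the related genes, and 391 to 3351 of all genes, and against Nkx castrate from 1 to 4 and 0 to 4, 5 to 23 and 1 to 13, and 687 to 3854.

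Without a filter on low counts, related genes called for castration were 6 higher and 8 lower and all genes 2300; against Nkx intact 2 of the 10 and 6 related genes were lower, of 2665 in all; against Nkx castrate 2 of the 10 and 8 related genes were lower, of 3518 in all. This setting moved the median of all genes to 0.182 for castration and -0.185 against Nkx castrate. DESeq2 called 7 related genes lower and 2015 genes in all for castration, 1 of the 10 and 4 related genes lower and 2453 in all against Nkx intact, and 2 of the 10 lower against Nkx castrate, where limma-voom called 1. With only the groups compared, castration gave 0 related genes higher and 671 in all, Clu intact against Nkx intact gave 2 of the 10 lower, 18 related genes higher, 7 lower and 3309 in all, and against Nkx castrate 1 of the 10 and 1 related gene lower. Tested against a 2-fold minimum, castration gave 0 related genes higher, 1 lower and 268 in all, the comparison with Nkx intact 1 of the 10 higher, 4 related genes higher, 1 lower and 410 in all, and that with Nkx castrate 1, 5, 1 and 583.

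Deviations of libraries with the same replicate number correlated at 0.11, 0.06 and 0.26 over genes, and no label links the numbers, so they were not taken as pairs. With a replicate block, 5 related genes were lower for castration, and 1 and 2 of the 10 were lower in Clu intact against Nkx intact and Nkx castrate: Timp3 in both (adjusted p = 0.012 and 0.0161, edgeR) and Plat in the latter (adjusted p = 0.012, edgeR). Other scalings of the counts changed no call among the 10 genes. Over the alternatives that left out no library, 277 of the 10 genes' values kept their direction and side of the threshold, 17 passed it and 6 no longer did.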
